A study of Mus musculus with 2 samples.

Results

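The 32 genes described here carry out sterol synthesis or control it, and they were followed through the white cells of mouse blood. They were chosen by symbol from the 27998 genes of the count tables, and every listed symbol was found. The rule held no measured value, but earlier results of these data were known when the genes were chosen. In order of their roles, 8 lead from acetoacetyl-CoA to the prenyl diphosphates, 11 lead from squalene to cholesterol, 5 make up the SREBP control system, 3 move sterols inside the cell and 5 belong to the LXR arm.

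The data came from 2 droplet-based single-cell RNA libraries of peripheral blood mononuclear cells from female C57Bl/6 mice aged 10 weeks. The mutant library came from MvkV377I/del91 animals, which carry the V377I allele and the del91 allele of the mevalonate kinase gene and no wildtype copy. The wildtype library came from Mvk+/+ animals. For each genotype the blood of 3 mice was pooled before the library was made, red cells were removed by lysis, and live Ter119-negative cells were sorted. Effects of the genotype, of the pooled mice and of the library therefore cannot be told apart. A comparison of 1 library with 1 other allows no test, so no p-value is given, and the intervals cover counting error alone.

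The mevalonate pathway turns acetyl units into mevalonate, which Mvk phosphorylates, and then into farnesyl and geranylgeranyl diphosphate. These anchor small GTPases to membranes, and farnesyl diphosphate is also the entry to squalene and cholesterol. Low sterol lets Scap carry the SREBP transcription factors out of the endoplasmic reticulum to be activated, which the Insig proteins oppose, whereas sterol derivatives activate the LXR nuclear receptors, which switch on sterol export. In people, weak MVK alleles cause an inherited periodic fever disorder.

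After filtering, 4190 mutant and 5225 wildtype cells remained, where 2000 had been targeted per library, with a median of 1968 and 2036 UMIs (unique molecular identifiers, each standing for 1 captured RNA molecule). A cell was given a type when at least 75% of its marker UMIs belonged to that type. The T cells numbered 2267 mutant and 2751 wildtype, the B cells 1262 and 1098, the natural killer (NK) cells 173 and 845, and the monocytes 104 and 107, with medians of 1582 to 2957 UMIs. Their own markers summed to 3732 to 8534 CPM (UMIs of the genes scaled to a common total of all UMIs of the type) in every type and library, and those of the other 3 types to 8.76 to 258 CPM. The typing rule itself brings this order about, so it is no check of the types. The libraries shared 28 cell barcodes, 0.668% of mutant and 0.536% of wildtype cells. Haemoglobin RNA stood apart: the erythroid list summed to 5681 to 14678 CPM in the mutant types and 282 to 2339 CPM in the wildtype ones, and to 50485 and 3559 CPM in near-empty barcodes. Levels below are CPM of a type. Each molecule gives 1 tag at its 3' end, so levels were not divided by transcript length.

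The pathway was expressed at a low level in every type. Summed over the 19 synthesis genes, mutant T cells held 249 CPM (95% interval 236 to 264) and wildtype T cells 257 CPM (245 to 270). B cells held 295 (274 to 317) and 266 CPM (245 to 289). NK cells held 283 (232 to 342) and 312 CPM (285 to 341). Monocytes stood highest in both libraries, at 429 CPM in the mutant (363 to 505) and 738 CPM in the wildtype (644 to 842), which was 1.72-fold (1.44 to 2.04) and 2.87-fold (2.48 to 3.30) the T cell level. Neither the B nor the NK cells stood apart from the T cells by more than 1.21-fold in either library. Counts per cell were sparse: 61.4% of mutant and 56.2% of wildtype T cells had no UMI of any synthesis gene.

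**Figure D1:**
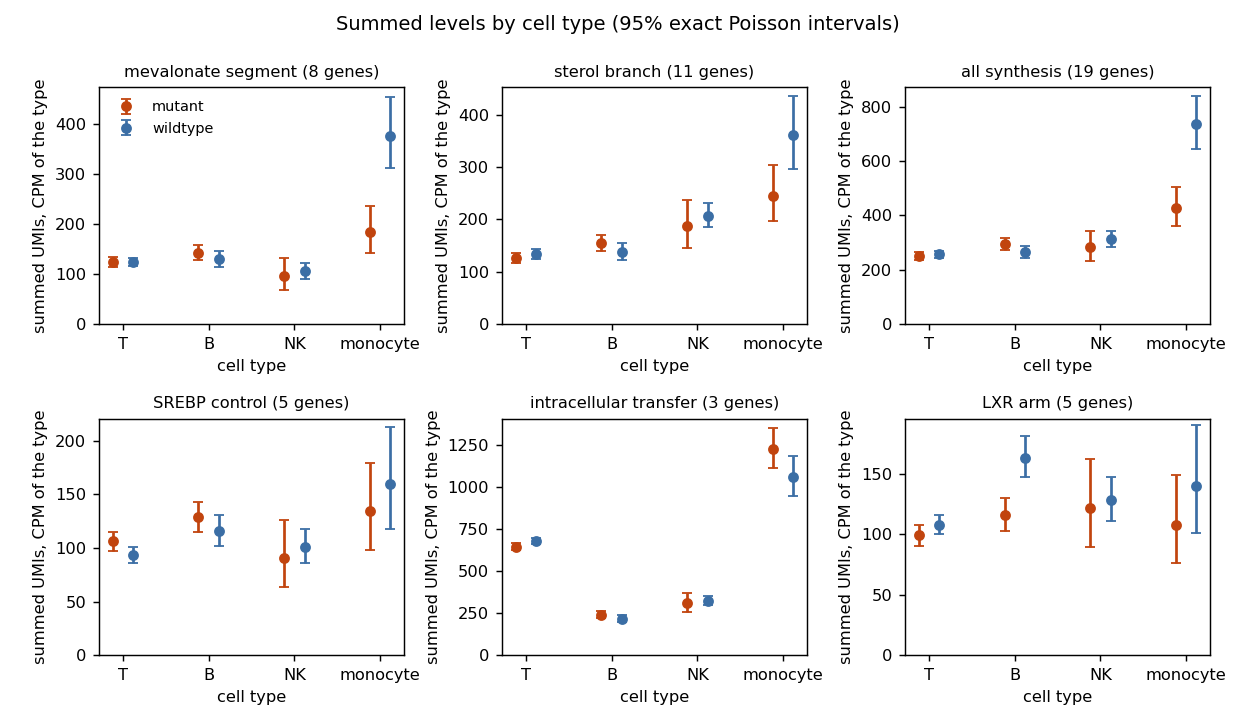
Summed levels of the genes of each role, in CPM of the type (vertical axes, from 0), for T, B, NK and monocyte cells (horizontal axes). Each point is 1 library with its exact Poisson 95% interval. Monocytes stand highest for synthesis, with the wildtype library at 738 and the mutant at 429 CPM, and in the LXR arm the B cells of the mutant (116 CPM) lie below those of the wildtype (163 CPM).

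Mvk itself was scarce. T cells held 30 mutant and 42 wildtype UMIs (5.95 and 6.31 CPM), B cells 13 and 11 (5.08 and 5.09 CPM), NK cells 0 and 1, and monocytes 1 and 2. The ratio was 0.943 (0.570 to 1.54) in T cells and 0.999 (0.413 to 2.46) in B cells, so no difference was detectable at this depth. With each cell thinned to 800 UMIs, which leaves fewer counts, the T cell ratio was 0.539, and over the other settings it ran from 0.872 to 0.987. In NK cells the 0 mutant UMIs allow up to 7.79 CPM, which does not separate them from T cells, whereas the single UMI among 1562358 in wildtype NK cells (0.640 CPM, up to 3.57) lay below the 6.31 CPM of wildtype T cells (4.55 to 8.53). The gene (ENSMUSG00000041939) lies on chromosome 5 at 114444269 to 114460591, plus strand, of GRCm38. The tags count RNA by its 3' end and the position of del91 is not in the labels, so these counts do not check the genotype.

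Among the other early steps, Acat2, the cytosolic thiolase that makes acetoacetyl-CoA, stood at 18.0 and 17.1 CPM in mutant and wildtype T cells and 16.4 and 12.0 CPM in B cells. Acat2 has a close copy next to it, Acat3, and reads shared by them are uncertain. Hmgcs1, which makes HMG-CoA, stood at 14.3 and 14.4 CPM in T cells, 18.0 and 19.4 in B cells, 26.0 and 30.1 in NK cells, and 23.4 and 43.4 CPM in monocytes. The NK level of Hmgcs1 lay above that of T cells by more than counting error in the wildtype library, where its interval was 22.1 to 40.0 CPM against 11.7 to 17.6.

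Hmgcs1 is a textbook target of the SREBP proteins, and it was the single member whose upstream sequence held the searched form of the sterol regulatory element, TCACNCCAC. The RefSeq promoter table (GRCm38.p6) held 26 of the 32 members, and Abcg1, Fdft1, Fdps, Npc1, Sqle and Stard4 were not searched. The element was found on the plus strand 137 to 129 bases before the annotated start, and it stands in capitals within the 250 bases upstream of the start (chr13:119690101-119690350, plus strand, 5' to 3').
Hmgcs1: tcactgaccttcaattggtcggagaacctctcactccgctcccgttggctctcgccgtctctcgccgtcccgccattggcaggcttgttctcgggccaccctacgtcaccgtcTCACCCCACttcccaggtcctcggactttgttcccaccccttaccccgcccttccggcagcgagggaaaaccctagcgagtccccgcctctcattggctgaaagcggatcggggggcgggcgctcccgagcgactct

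Read on both strands of the 250 bases upstream, TCACNCCAC stood in 1 of the 26 members (3.85%) and in 1.22% of the 27025 genes of the table. The letters CCAAT, the core bound by the factor NF-Y, were found in 21 of 26 members (80.8%) against 37.5% of all genes, and in all 9 of the 11 genes of the squalene to cholesterol branch that the table held. GGGCGG, a form bound by Sp1, was found in 22 of 26 (84.6%) against 35.4%, and again in these 9 of that branch. A gene counted when any of its listed starts had a match, and 6 of the 26 members (23.1%) had more than 1 listed start, against 15.4% of all genes. These are matches of letters in a window that starts at an annotated start, not measured binding, and the genes of the table were not matched for base composition.

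The kinase and decarboxylase steps after Mvk differed between types. Pmvk, phosphomevalonate kinase, stood at 10.7 and 13.4 CPM in T cells but 22.7 and 25 CPM in B cells. Mvd, the decarboxylase, ran the other way between T and B cells, at 10.3 and 13.5 CPM in T cells, 7.04 and 6.48 in B cells and 2.60 and 3.20 CPM in NK cells. In the wildtype library the Pmvk intervals of B cells (18.8 to 32.6) and T cells (10.7 to 16.5) were apart, and so were the Mvd intervals of T cells (10.9 to 16.6) and NK cells (1.04 to 7.47). Idi1, the isomerase, lay between 9.76 and 14.9 CPM in T and B cells. All 3 genes had their highest values in monocytes, on few UMIs: Pmvk at 26.3 and 60.1 CPM (9 and 18 UMIs), Mvd at 11.7 and 40.1 CPM (4 and 12 UMIs) and Idi1 at 20.5 and 36.7 CPM (7 and 11 UMIs).

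Fdps and Ggps1 make farnesyl and geranylgeranyl diphosphate. Fdps stood at 28.4 and 25.1 CPM in T cells, 31.3 and 24.1 in B cells, 15.6 and 16.6 in NK cells, and 73.0 and 140 CPM in monocytes. It was thus high in monocytes of both libraries, at 2.91-fold (mutant) and 6.40-fold (wildtype) the mean of the other 3 types. NK cells stood at 0.352-fold and 0.264-fold such a mean, which the monocytes raise. The NK level was 0.55-fold (0.198 to 1.23) and 0.663-fold (0.421 to 1.01) that of T cells. Against B cells it was 0.498-fold (0.178 to 1.13) and 0.692-fold (0.414 to 1.13). NK cells were therefore not told apart from T or B cells. Of its 42 wildtype monocyte UMIs, 28 came from the 17 cells of the H2-Ab1-rich set, which is described below. Ggps1 was more even, at 15.6 to 33.4 CPM over all types and libraries. An unnamed gene model on the same strand, Gm43738, overlaps exons of Fdps (chromosome 3, 89093588 to 89101959, minus strand), and reads in the overlap are uncertain.

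In the squalene to cholesterol branch a single gene stood out. The sterol isomerase gene Ebp maps to the minus strand of the X chromosome (8185329 to 8193512). Its level was 45.8 and 50.2 CPM in T cells, 50.8 and 42.1 in B cells, 101 and 113 in NK cells and 102 and 100 CPM in monocytes. NK cells and monocytes thus held it at about the same level, above the T and B cells in each library, and it made up 18.4% and 19.5% of all synthesis UMIs of mutant and wildtype T cells. The sterol branch was 1.49-fold (1.15 to 1.90) and 1.55-fold (1.36 to 1.76) higher in NK than in T cells. Without Ebp these values were 1.07 (0.728 to 1.53) and 1.12 (0.928 to 1.35), so no NK excess of the other 10 genes was detectable at this depth.

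Cyp51, the lanosterol demethylase, stood at 8.33 and 9.16 CPM in T cells and 21.9 and 15.7 CPM in B cells, 10.4 and 11.5 in NK cells and 26.3 and 53.4 CPM in monocytes (9 and 16 UMIs). T cells had its lowest value, at 0.427-fold and 0.341-fold the mean of the other types, a mean that the monocytes raise. The NK level was 1.25-fold (0.325 to 3.44) and 1.26-fold (0.699 to 2.16) that of T cells, so T and NK cells were not told apart. Msmo1, the methyl sterol oxidase, stood at 14.5 and 16.4 CPM in T, 16 and 14.3 in B, 15.6 and 20.5 in NK cells and 43.8 and 66.8 CPM in monocytes. Its monocyte excess was 2.85-fold and 3.91-fold on 15 and 20 UMIs. Sc5d, a desaturase, and Dhcr7, which reduces the last double bond on 1 route, lay at 14.5 to 26.7 and 8.76 to 17.9 CPM. The squalene epoxidase gene Sqle stood at 5.75 to 7.82 CPM in T and B cells and at 17.5 and 46.8 CPM in monocytes (6 and 14 UMIs). Squalene synthase (Fdft1) lay at 4.63 to 7.04 CPM in T, B and NK cells and at 5.84 and 16.7 CPM in monocytes, and the sterol dehydrogenase Nsdhl lay at 8.11 to 23.4 CPM everywhere.

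The rarest synthesis genes by UMIs were Lss, Tm7sf2 and Hsd17b7. Lss, lanosterol synthase, gave 18 and 19 UMIs in T cells and at most 7 in any other type. Tm7sf2, a sterol reductase whose exons overlap those of Vps51 on the same strand, gave 10 and 8 UMIs in T and 10 and 3 in B cells. Hsd17b7, a keto-sterol reductase, stood at 4.36 CPM in T cells of both libraries. Exons of Cyp51, Fdft1, Ggps1, Lss and Srebf1 overlap listed genes on the opposite strand, and how the counting used strand is not given in the sources used here.

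The control genes had their own order. Srebf2, the SREBP of sterol synthesis, stood at 46.9 and 43.0 CPM in B cells, 31.3 and 24.8 in T cells, 35.1 and 56.8 in monocytes and 7.79 and 12.2 CPM in NK cells, on 3 and 19 UMIs. NK cells were lowest, at 0.206-fold and 0.293-fold the mean of the other types. Srebf1, which also drives fatty acid synthesis, lay at 7.79 to 20.5 CPM. Scap, the escort, stood at 16.9 and 16.7 CPM in T cells and 16 and 13 CPM in B cells. Insig1, itself a SREBP target, stood at 24.4 and 22.2 CPM in T cells, 24.6 and 21.3 in B cells, 26.0 and 13.4 in NK cells and 70.1 and 46.8 CPM in monocytes. Insig2 ran differently, at 41.6 CPM in NK cells of both libraries, 33.2 and 27.3 in B cells, 23.6 and 18.2 in T cells and 11.7 and 33.4 CPM in monocytes (4 and 10 UMIs). Insig1 RNA was also high in near-empty barcodes, at 73.3 and 58.6 CPM.

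Sterol transfer was dominated by Npc2, the soluble protein that hands cholesterol to Npc1 in the lysosome. Npc2 stood at 1189 (1076 to 1310) and 1009 CPM (898 to 1129) in monocytes, 625 and 656 in T cells, 265 and 285 in NK cells and 223 and 202 CPM in B cells. The order monocyte, T, NK, B was the same in both libraries. The intervals of neighbouring types did not overlap, except those of the mutant NK (216 to 322) and B cells (205 to 242). Inside the monocytes, Npc2 stood at 1577 and 1564 CPM in cells with more classical marker UMIs and at 573 and 520 CPM in those with more non-classical ones. In near-empty barcodes it stood at 407 and 469 CPM, and at the share of free RNA estimated from the 90% of cells lowest in haemoglobin (4.56% to 5.65%) this would add 18.6 to 26.5 CPM to a type.

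Npc1, the membrane partner, followed another order: 33.8 and 32 CPM in NK cells against 11.3 and 12.3 in T cells, 8.99 and 9.72 in B cells and 20.5 and 23.4 CPM in monocytes (7 UMIs each). NK cells were thus low in Npc2 and high in Npc1 relative to T cells in both libraries. Stard4, a soluble sterol carrier, lay at 6.48 to 30.1 CPM. Exons of Npc1 overlap those of Rmc1 on the opposite strand.

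**Figure D2:**
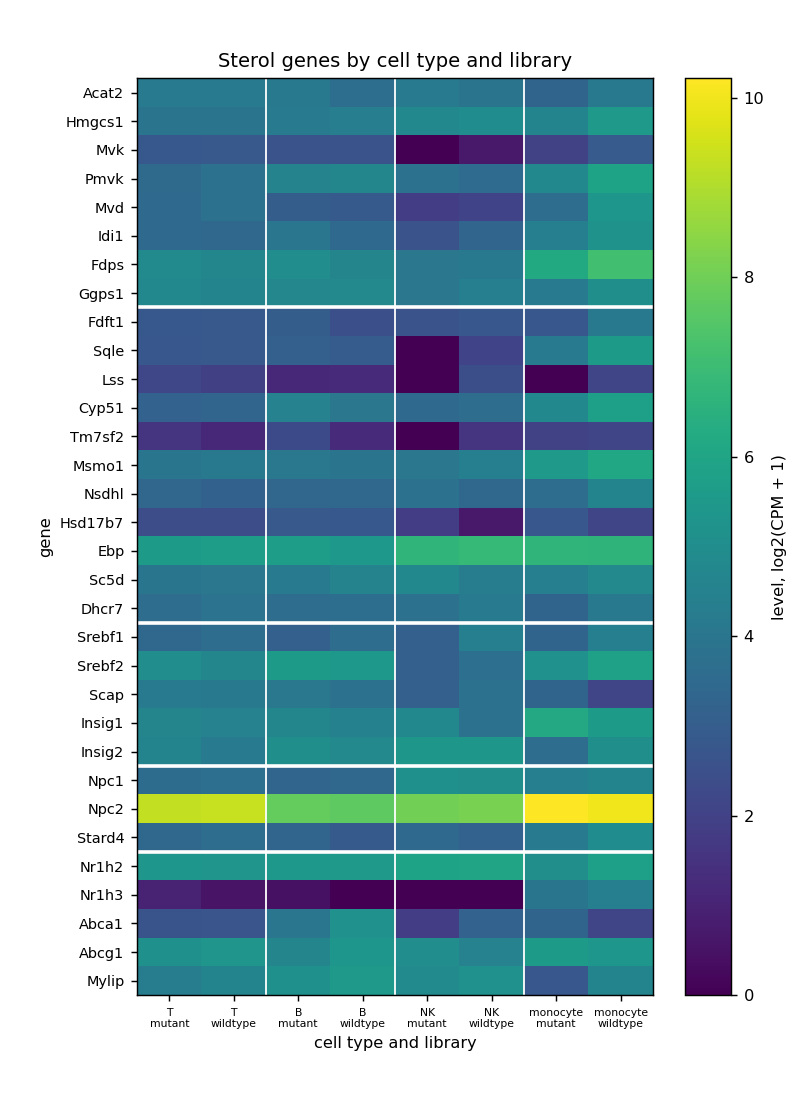
Levels of the 32 genes (rows, in the order of their roles, with white lines between the 5 roles) in the 4 types of both libraries (columns), as log2(CPM + 1). Npc2 is brightest throughout, at 1189 and 1009 CPM in monocytes, Ebp stands out in NK cells and monocytes (100 to 113 CPM), and Mvk, Lss, Tm7sf2, Hsd17b7 and Nr1h3 are among the darkest rows.

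Few members marked a type. A gene counted when it was at least 2-fold above or below the mean of the other 3 types in both libraries, among genes with at least 5 expected UMIs of the type in each library, expected from the gene's level over all typed cells. In T cells 0 of 32 members were higher (5.10% of all genes) and 2 lower, Cyp51 and Nr1h3 (15.5% of all). The Nr1h3 call came from the monocytes alone, since T cells gave 5 and 3 UMIs, B cells 1 and 0 and NK cells 0. In B cells 1 of 30 was higher, Abca1 (5.44% of all), and 2 lower, Npc1 and Npc2 (10.9%). In NK cells 0 of 17 were higher (4.97%) and 3 lower, Fdps, Srebf2 and Npc2 (8.30%). The Fdps call rests on the monocytes, since its NK level was not told apart from that of T or B cells. In monocytes 4 of 13 were higher, Fdps, Msmo1, Insig1 and Npc2 (6.54% of all), and 0 lower (11.4%). The 4 in monocytes are a share of 30.8%, and with at least 10 expected UMIs in place of 5 the count of members was 1. The minimum keeps the members most abundant over all typed cells, so the 13 are no sample of the 32.

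Between the genotypes, few members differed. A gene counted at 1.5-fold or more among those with at least 50 UMIs in both libraries together. In T cells 0 of 29 measured members were higher and 0 lower, where 2.22% and 2.54% of all genes were, and their median ratio of mutant to wildtype was 0.943 (1 over all genes). In B cells 0 of 20 were higher (3.56% of all) and 2 lower (2.80% of all), with a median of 1.10 (1.01 over all). In NK cells 0 of 7 were higher or lower (4.10% and 9.26% of all; median 0.930 against 0.966). In monocytes 0 of 3 were higher (6.09%) and 1 lower, Fdps (6.61%), with a median over the 3 of 1.02 (0.984 over all).

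In T cells the synthesis sum had a ratio of 0.969 (0.901 to 1.04), and the 17 measured synthesis genes ran from 0.763 (Mvd, 0.531 to 1.08) to 1.15 (Nsdhl, 0.760 to 1.73). The intervals of all 19 synthesis genes held 1 in T cells, the most deeply sampled type. The SREBP control genes summed to 106 CPM in mutant and 93.3 CPM in wildtype T cells (ratio 1.14, 1.01 to 1.28), with Srebf2 at 1.26 (1.01 to 1.58) and Insig2 at 1.30 (1 to 1.69). Neither reached 1.5-fold. In B cells the synthesis sum had a ratio of 1.11 (0.993 to 1.24), with Idi1 at 1.46 (0.842 to 2.59) and Sc5d at 0.776 (0.506 to 1.19) as the outermost of the 11 measured genes. In NK cells the sum had a ratio of 0.906 (0.730 to 1.12).

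Cells typed as monocytes differed in synthesis, and the ratio was lowest in a minority of them, described below. The sums of 429 CPM (147 UMIs, mutant) and 738 CPM (221 UMIs, wildtype) gave a ratio of 0.582 (0.469 to 0.720). The mevalonate segment stood at 184 and 377 CPM (0.488, 0.352 to 0.669), and the sterol branch at 245 and 361 CPM (0.680, 0.505 to 0.913). Of the 19 genes, 17 had a lower level in the mutant, with Hsd17b7 and Ebp (1.02, 0.609 to 1.72) as the exceptions, although 2 of the 19 reached 50 UMIs. This count has no UMI minimum, so Lss (0 and 1 UMIs) and Mvk (1 and 2) are in it. The share of all genes lower in mutant monocytes was not computed. The genes are also no separate observations, since 17 wildtype cells, the H2-Ab1-rich set described below, gave 117 of the 221 UMIs. Fdps, on 25 and 42 UMIs, gave 0.521 (0.304 to 0.874). This ratio ranged from 0.391 to 0.772 over the alternative settings run for single genes, which did not leave out the H2-Ab1-rich cells described below. With a minimum of 100 UMIs the gene was not counted. The sum of the control genes (134 and 160 CPM; 0.838, 0.547 to 1.28) was not told apart at this depth.

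The monocyte ratio was lowest in a minority of the cells. A set of cells, called H2-Ab1-rich for short, was singled out after the values were seen. It held 21 mutant and 17 wildtype cells. They had at least 10 UMIs of the antigen presentation gene H2-Ab1, or at least 2 of the dendritic markers Cd209a, Flt3 and Siglech together. A cell could thus enter by the dendritic markers alone. The synthesis UMIs of this set amounted to 539 CPM (mutant) and 1510 CPM (wildtype) (0.357, 0.257 to 0.492). The other 83 and 90 cells held 378 and 469 CPM, and their ratio of 0.806 (0.600 to 1.08) did not leave out 1. A single wildtype cell gave 34 of the 221 UMIs. Without the highest cell of each library the levels were 405 and 638 CPM (ratio 0.635), and without the 5 highest 349 and 526 CPM (0.664). Fdps stood at 110 CPM (mutant, 12 UMIs) and 361 CPM (wildtype, 28 UMIs) in the H2-Ab1-rich cells. In the other cells it stood at 55.8 and 63.1 CPM (13 and 14 UMIs).

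The mix of monocytes also differed: 49 mutant and 30 wildtype cells had more classical marker UMIs, and 54 and 73 more non-classical ones. Synthesis stood at 479 and 917 CPM in the first (0.523, 0.395 to 0.691) and at 347 and 495 CPM in the second (0.701, 0.477 to 1.02). With the parts given the same weights in both libraries the ratio was 0.597. Platelet RNA moved with the genotype in these cells, at 1288 and 504 CPM for all 6 genes of the list, and none of the 6 was at 0 in either library. Erythroid RNA stood at 6658 and 304 CPM, with 0 and 1 of 5 genes at 0. The plasmacytoid dendritic list (Siglech, Bst2, Ccr9 and Tcf4) summed to 476 CPM in mutant and 815 CPM in wildtype monocytes, with none of the 4 at 0, against 87 to 223 CPM in the other types. Basophil markers summed to 11.7 and 60.1 CPM, with 1 of 4 at 0 in each library. The part of these plasmacytoid dendritic and basophil lists in the synthesis difference was not tested. The synthesis ratio was 0.490 without cells that held more than 1% haemoglobin UMIs or at least 3 platelet UMIs. Cells with less of this RNA stayed in.

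**Figure D3:**
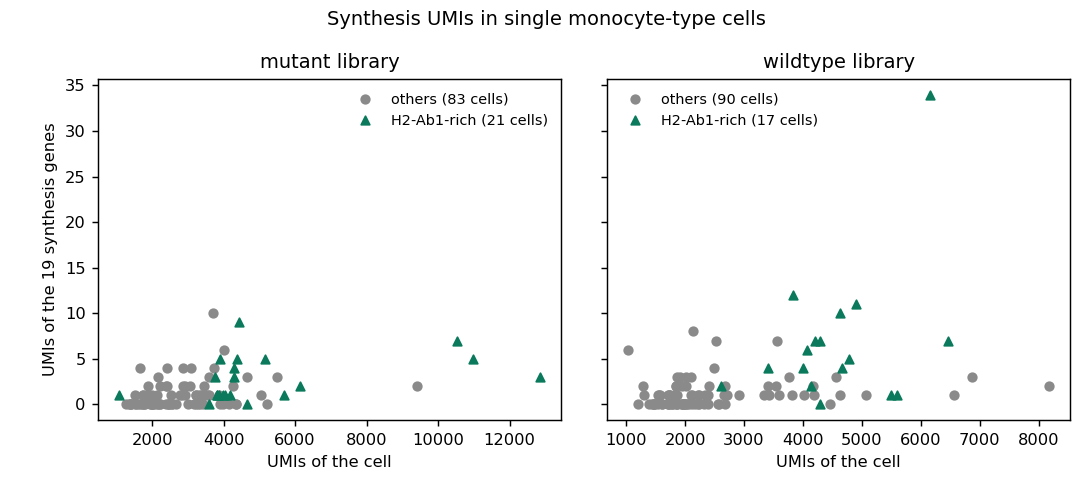
UMIs of the 19 synthesis genes (vertical axis) against all UMIs of the cell (horizontal axis) for each monocyte of the mutant (left) and wildtype library (right). Green triangles are the H2-Ab1-rich cells (21 and 17) and grey circles the others (83 and 90), and 1 wildtype triangle at 34 UMIs stands above all other cells.

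In B cells, 2 sterol exporter genes of the LXR arm stood lower in the mutant library. Abca1, the exporter that loads cholesterol onto lipid-poor apolipoprotein, gave 38 UMIs (14.9 CPM, 10.5 to 20.4) in mutant and 75 UMIs (34.7 CPM, 27.3 to 43.5) in wildtype B cells. The intervals did not overlap, and the ratio was 0.428 (0.282 to 0.641). The UMIs came from 37 and 74 cells, with at most 2 in a cell, so the difference was spread over many cells. In T cells Abca1 stood at 5.35 and 5.41 CPM (0.990, 0.578 to 1.68), in NK cells at 2.60 and 8.32 CPM on 1 and 13 UMIs, and in monocytes at 8.76 and 3.34 CPM on 3 and 1. B cells held the most Abca1 of the 4 types in both libraries, at 2.67-fold the mean of the others in the mutant and 6.10-fold in the wildtype.

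Abcg1, which exports cholesterol to lipoprotein particles, gave 61 UMIs (23.9 CPM) in mutant and 86 (39.8 CPM) in wildtype B cells, a ratio of 0.599 (0.425 to 0.842). It stood at 33.5 and 39.4 CPM in T cells (0.852, 0.698 to 1.04), 31.2 and 22.4 in NK cells and 46.7 and 40.1 CPM in monocytes. Mylip, the ubiquitin ligase that marks lipoprotein receptors for degradation, stood at 34.4 and 44.4 CPM in B cells (0.775, 0.573 to 1.05) and 19.2 and 23.4 CPM in T cells (0.821, 0.630 to 1.06), 28.6 and 35.2 in NK cells and 5.84 and 23.4 CPM in monocytes (2 and 7 UMIs). Of the receptor genes, Nr1h2 alone had enough UMIs in B cells to compare. Nr1h2, which encodes LXR beta, stood at 42.2 and 44.4 CPM in B cells (0.951, 0.715 to 1.26), 40.1 and 39.1 in T cells, 59.7 and 62.1 in NK cells and 32.1 and 53.4 CPM in monocytes. Nr1h3, LXR alpha, stood highest in monocytes, with 5 and 6 UMIs there (14.6 and 20 CPM), 5 and 3 in T cells, 1 and 0 in B cells and 0 in NK cells.

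Summed over the 5 genes, the LXR arm stood at 116 CPM in mutant and 163 CPM in wildtype B cells (0.709, 0.605 to 0.829). The sum over Abca1, Abcg1 and Mylip stood at 73.1 and 119 CPM (0.615, 0.507 to 0.745). This sum is not 1 of the 5 roles. It leaves out the receptor genes, of which Nr1h2 had a ratio of 0.951 in B cells, so it is no separate evidence. In T cells the sum over the 5 had a ratio of 0.921 (0.820 to 1.03), in NK cells 0.954 (0.679 to 1.32) and in monocytes 0.771 (0.482 to 1.23). The sum over the 3 was also lower in mutant T cells, at 0.852 (0.733 to 0.989), an interval that left out 1. In NK cells the sum over the 3 gave 0.946 (0.58 to 1.49) and in monocytes 0.918 (0.474 to 1.79). Whether the ratio differs between types was not tested.

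**Figure D4:**
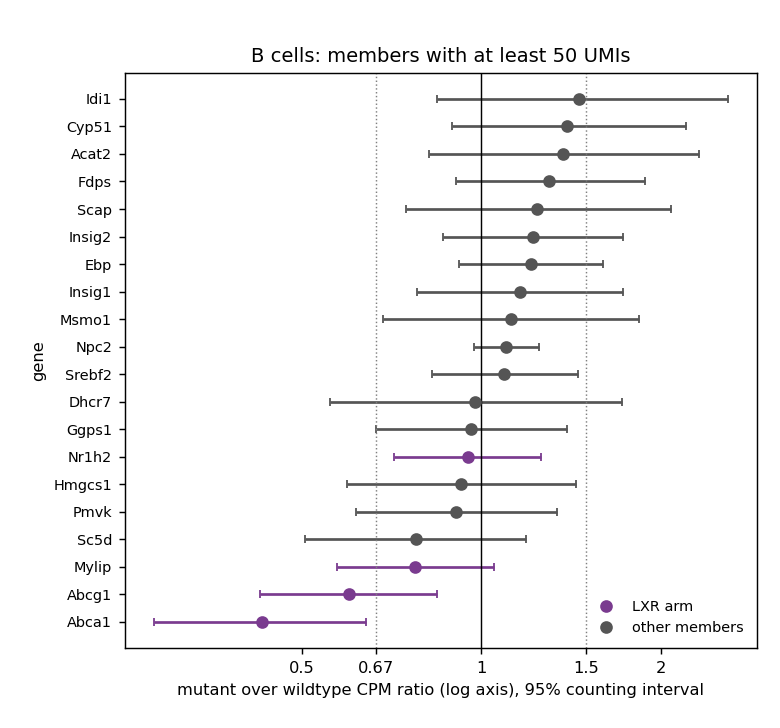
Ratio of mutant to wildtype CPM in B cells (log axis) for the 20 members with at least 50 UMIs, sorted, with 95% counting intervals. Purple points are LXR arm genes and grey points the other members, dotted lines mark 1.5-fold, and Abca1 (0.428) and Abcg1 (0.599) are the members below the lower line.

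Abca1 stood lower in the mutant library in each part of the B cells, although 1 of the 3 intervals held 1. Cells with more UMIs of Vpreb3, Cd24a and Cd93 than of Fcer2a (transitional-like, 356 mutant and 257 wildtype cells) held Abca1 at 10.3 and 32.1 CPM (0.320, 0.128 to 0.734). Those with more Fcer2a, a marker of mature B cells (365 and 366 cells), held it at 16.3 and 29.9 CPM (0.543, 0.227 to 1.22), and the others (541 and 475 cells) at 17.8 and 40.2 CPM (0.443, 0.240 to 0.796). For Abcg1 the 3 ratios were 0.746, 0.579 and 0.544. With the parts weighted by their wildtype UMIs in both libraries, Abca1 gave 0.437 and Abcg1 0.603. Median depth was alike, at 1586 and 1582 UMIs per B cell.

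**Figure D5:**
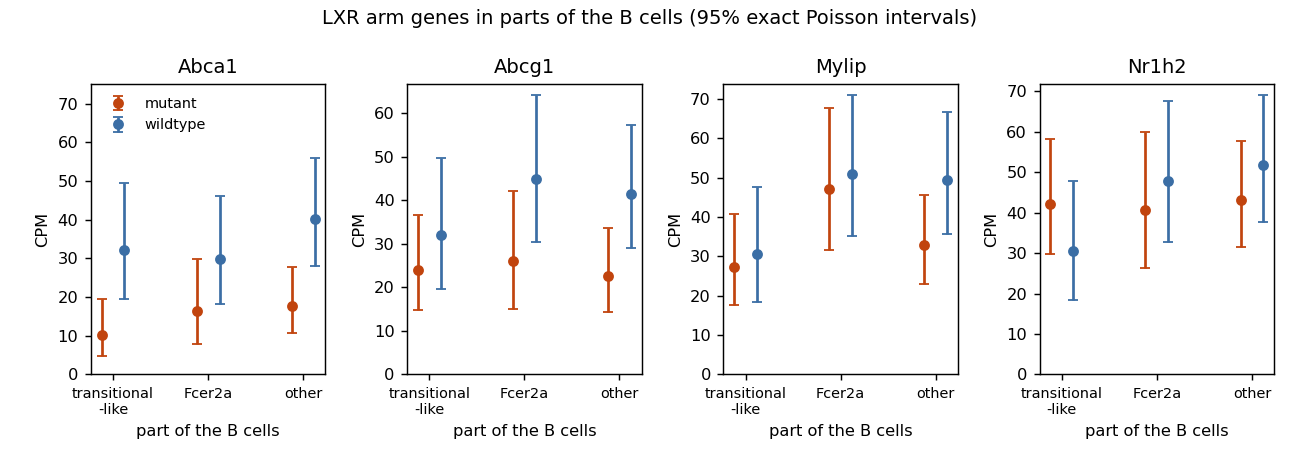
Levels of Abca1, Abcg1, Mylip and Nr1h2 in CPM (vertical axes, from 0) in the 3 parts of the B cells (horizontal axes), with exact Poisson 95% intervals. The mutant points of Abca1 (10.3 to 17.8 CPM) lie below the wildtype points (29.9 to 40.2 CPM) in each part, and those of Nr1h2 do not keep 1 order.

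Haemoglobin RNA moved with the genotype in B cells, at 14678 and 2339 CPM for the 5 erythroid genes, none at 0. Without cells holding more than 1% haemoglobin UMIs or at least 3 platelet UMIs, Abca1 gave 0.428 and Abcg1 0.606. Cells with less of this RNA stayed in. Free RNA held Abca1 at 12.6 and 13 CPM and Abcg1 at 40.5 and 54.3 CPM. When free RNA was subtracted at a share set by the haemoglobin UMIs of all cells, which put 65.9% of the wildtype B cell UMIs down to free RNA, Abca1 gave 0.206 and Abcg1 turned to 1.44. At the share from the 90% of cells lowest in haemoglobin (4.91% and 5.24%), they gave 0.417 and 0.590.

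The LXR proteins are known to bind paired half-sites spaced by 4 bases. The form searched was GGTTA, then 5 free bases (the spacer and the first base of the second half-site), then GGTCA, on either strand. Abca1 and Srebf1 were the 2 of 26 members with it upstream of their start (7.69%), against 12 of the 27025 genes (0.0444%). Both are textbook LXR targets, and the form was written with known sites in mind. The element lies on the minus strand of each printed window, 67 to 53 bases before the Abca1 start and 182 to 168 bases before the Srebf1 start, and is shown in capitals because Abca1 carried the main difference in B cells. The windows are chr4:53159896-53160145 for Abca1 and chr11:60210472-60210721 for Srebf1, both genes being on the minus strand and read 5' to 3' along the gene (GRCm38.p6).
Abca1: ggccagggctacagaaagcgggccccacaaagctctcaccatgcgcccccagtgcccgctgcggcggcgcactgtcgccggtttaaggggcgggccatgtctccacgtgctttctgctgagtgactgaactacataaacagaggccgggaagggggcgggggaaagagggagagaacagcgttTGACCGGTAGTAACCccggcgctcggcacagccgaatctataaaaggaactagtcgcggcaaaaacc
Srebf1: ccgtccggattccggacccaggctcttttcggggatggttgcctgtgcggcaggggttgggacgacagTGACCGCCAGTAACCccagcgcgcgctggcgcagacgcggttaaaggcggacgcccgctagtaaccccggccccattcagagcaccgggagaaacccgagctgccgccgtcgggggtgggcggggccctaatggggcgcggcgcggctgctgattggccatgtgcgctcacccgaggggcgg

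The start used for Srebf1 lies inside the annotated gene (chromosome 11, 60199089 to 60222581), and Abca1 spans chromosome 4 from 53030787 to 53159895. Srebf1 stood at 7.82 and 11.6 CPM in B cells on 20 and 25 UMIs (0.676, 0.356 to 1.27), at 9.92 and 11.4 CPM in T cells (0.869, 0.595 to 1.26) and at 7.79 and 20.5 CPM in NK cells on 3 and 32 UMIs (0.380, 0.0745 to 1.22). With monocytes at 8.76 and 20 CPM on 3 and 6 UMIs (0.437, 0.0708 to 2.05), the Srebf1 interval held 1 in each of the 4 types. Over all typed cells, whose mix differed between the libraries, Srebf1 gave 76 and 139 UMIs (9.13 and 13 CPM; 0.701, 0.523 to 0.934), an interval that left out 1. The parts of the B cells did not keep 1 direction, on few UMIs. Those with more Fcer2a gave 4 and 14 UMIs of Srebf1 (0.310, 0.0744 to 0.988). Transitional-like cells gave 10 and 3 (2.37, 0.610 to 13.4) and the others 6 and 8 (0.612, 0.175 to 2.01).

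A pair of further lists gave the surroundings of the pathway. Of 25 other sterol and isoprenoid genes, 14 were measured between the genotypes in T cells with 0 higher and 1 lower, Mbtps2 (2.22% and 2.54% of all genes). In B cells 12 were measured with 0 higher and 1 lower, Pltp (3.56% and 2.80% of all), and in NK cells 5 with 0 either way (4.10% and 9.26%). In monocytes 4 were measured with 1 higher, Pltp, and 1 lower, Scarb1 (6.09% and 6.61%). No gene of the list was past 1.5-fold in the same direction in more than 1 type, and these names were read off after their values were seen. Pltp, the phospholipid transfer protein and also a known LXR target, stood at 11 and 21.3 CPM in B cells (0.514, 0.310 to 0.841) and at 356 and 127 CPM in monocytes (2.81, 1.94 to 4.16). The monocyte value depended on the part: Pltp stood at 546 and 147 CPM in classical monocytes (3.71, 2.24 to 6.48) but at 60.4 and 105 CPM in non-classical ones (0.573, 0.214 to 1.40), and the mix of these parts differed between the libraries. Of 11 fatty acid genes under SREBP-1, 1 was higher (Scd1) and 1 lower (Scd2) among 7 measured in T cells, against the same shares of all genes as above, and none was past the fold among 3 in B cells, 2 in NK cells and 1 in monocytes.

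By type, the other lists named B cells for Scd1, the stearoyl-CoA desaturase, at 170 and 183 CPM against 8.92 and 5.41 CPM in T cells, and for Erlin1, at 21.5 and 28.7 CPM against 2.97 and 3.61 CPM. Erlin1 was not highest in B cells throughout, since monocytes held it at 17.5 and 33.4 CPM on 6 and 10 UMIs. NK cells were named for Acss2, the acetyl-CoA synthetase, at 44.2 and 46.7 CPM (2.73-fold and 2.01-fold the mean of the other types), and monocytes for Lipa, the lysosomal acid lipase, at 102 and 70.1 CPM (2.95-fold and 2.04-fold). Lrp1 at 76 and 114 CPM, Scarb1 at 64.3 and 107 CPM and Pltp, as given above, were further above the other types in monocytes, but their level over all typed cells did not give 5 expected UMIs, so they were not counted. They were singled out after their values were seen. Of the sterol and isoprenoid list, 0 of 21 genes were higher and 7 lower in T cells (33.3%, against 15.5% of all genes), and 1 of 20 was higher and 3 lower in B cells (15%, against 10.9%). In NK cells 0 of 9 were higher and 3 lower (33.3%, against 8.30%), and in monocytes 1 of 7 was higher and 0 lower (6.54% and 11.4% of all). The minimum counts UMIs of all typed cells, so a gene held mostly by another type can pass it and is then called lower. Lrp1, called lower in T cells, gave 0 and 1 UMIs there and 26 and 34 in monocytes. Pltp, called lower in NK cells, gave 0 and 7 there and 122 and 38 in monocytes. The shares of lower genes are therefore no result about the T, B or NK cells. Of the fatty acid list, 0 of 9 were higher and 2 lower in T cells (5.10% and 15.5% of all genes), and 1 of 8 higher and 2 lower in B cells (5.44% and 10.9%). In NK cells 1 of 4 was higher and 1 lower (4.97% and 8.30%), and in monocytes 0 of 4 were higher and 1 lower (6.54% and 11.4%).

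Cycling cells, those with at least 2 UMIs of the cycling genes, numbered 75 mutant and 101 wildtype. They held the synthesis genes at 351 (281 to 434) and 437 CPM (370 to 512) against 270 (259 to 282) and 275 CPM (265 to 286) in the remaining cells, and Ebp at 110 and 106 CPM against 50.5 and 57.6 CPM. Without Ebp the synthesis genes stood at 241 (183 to 311) against 219 CPM (209 to 230) in the mutant, which were not told apart at this depth, and at 330 (273 to 396) against 218 CPM (209 to 227) in the wildtype library. Of the cycling cells, 53 and 57 were T cells and 8 in each library B cells. Of the 3731 and 4700 remaining cells, 2214 and 2694 were T cells and 1254 and 1090 B cells. The mix of types thus differed, and NK cells and monocytes held Ebp at 100 to 113 CPM. The part of this mix in the differences between cycling and remaining cells was not tested.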

How the data were processed

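Whole-number UMI counts per gene and barcode were used as deposited. Per the submitters' processing notes they were made with Cell Ranger 2.1.1 on mm10, and per the labels' protocols from Chromium 3' v2 libraries, 1 per genotype. Barcodes with at least 800 UMIs, at least 200 genes and at most 10% mitochondrial UMIs were kept. A cell was typed by at least 2 marker UMIs of a type and 75% of all marker UMIs. The 384 mutant and 424 wildtype cells without a type were left out. No doublet caller was run, and cells with mixed markers fell among those. UMIs were summed per type and library and given as CPM with exact Poisson 95% intervals, and ratios with exact conditional (Clopper-Pearson) intervals, for counting error. A count of 0 allows up to 3 counts. Calls were folds. They were checked on simulated data, which cannot show how far libraries of the same genotype would differ. All 32 members are given. The rule named genes of other lists when past 1.5-fold alike in 2 types, which none was, or among the 3 highest past 2-fold in a type. Mbtps2, Pltp, Scarb1, Lrp1, Scd2 and, between the genotypes, Scd1 fall outside it. The members and lists were chosen with earlier results of these data known. Free RNA was read from barcodes with at most 20 UMIs (395464 and 460573 UMIs). Alternatives covered filters, typing, free RNA, depth and scaling. Python 3.11.15, numpy 2.4.6, scipy 1.17.1, pandas 2.3.3 and matplotlib 3.10.9 were used, and gene positions came from GENCODE on GRCm38.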

Additional observations from a re-analysis of the deposited data

How the results depend on the processing

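Over 21 alternative settings, the 24 ratios of list sums gave 335 values, of which 326 stayed inside the counting interval of the value reported. The 9 ratios of single genes gave 111 values, of which 105 stayed inside. The other 6 were Abca1 (0.206), Abcg1 (1.44) and Mylip (0.536) in B cells and Npc2 in T cells (1) with free RNA subtracted, and Mvk in T cells (0.539) and Npc2 in monocytes (1.47) with cells thinned. Of 88 levels 75 stayed inside, and 83 of 108 counts of members stayed within 1.5 times. The share of all genes past a fold was not computed under the changed settings. The counts of members given below therefore have no background beside them and are no result about the members. The 5 settings that left out the highest cells or the H2-Ab1-rich cells, weighted parts alike or read free RNA from the 90% of cells lowest in haemoglobin were chosen after seeing the data.

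With at most 5% mitochondrial UMIs, 4 members were past 1.5-fold in B cells. With 60% of marker UMIs for a type, 5 were past 2-fold in NK cells. With 90%, the monocyte synthesis level of the mutant was 363 CPM, with 0 members past 1.5-fold between genotypes and 2 past 2-fold against the other types. Without cells holding more than 1% haemoglobin UMIs or at least 3 platelet UMIs these monocyte values were 358 CPM and 0 members.

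Free RNA subtraction at the share from all cells gave ratios of 0.903 for SREBP control in B cells and 1 for intracellular transfer in T cells. Members past 1.5-fold numbered 4 in T and 7 in B cells, and those past 2-fold against the other types 5 in T, 6 in B cells and 2 in monocytes. Abcg1 in B cells turned to 1.44 there, and the intracellular transfer ratio in B cells had no value because nothing was left to divide by.

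Thinning each cell to 800 UMIs gave ratios of 1.34 (mevalonate segment, NK), 1.08 (sterol branch, T), 1.27 and 1.46 (intracellular transfer, NK and monocytes) and 0.848 (LXR arm, B). Synthesis then stood at 272 CPM in mutant B cells and at 325 and 561 CPM in mutant and wildtype monocytes. Members past 1.5-fold between genotypes numbered 1 in B, 1 in NK and 0 in monocytes, and those past 2-fold against other types 1 in NK and 0 in monocytes. Most UMIs of the deep cells are lost in thinning, so these values rest on fewer counts.

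On a total without haemoglobin, mitochondrial and ribosomal genes, synthesis stood at 432 and 451 CPM in T (mutant and wildtype), 440 and 398 in B, 365 and 388 in NK cells and 538 and 931 CPM in monocytes, as the smaller total gives. Measured from 20 UMIs, 4 members were past 1.5-fold in NK cells and 8 in monocytes, from 100 UMIs 0 in monocytes, and with no minimum 2 in T, 5 in B, 11 in NK cells and 24 in monocytes. With at least 10 expected UMIs, 1 member was past 2-fold in T cells and 1 in monocytes, and with at least 2, 8 in NK cells. Without the H2-Ab1-rich cells the monocyte ratios were 0.699 for the mevalonate segment and 0.806 for all synthesis. For values not explained here by the setting's own construction, the cause was not tested. Depth limits NK cells and monocytes most, with 384994 and 342274 mutant UMIs. No paired analysis was possible because each genotype has 1 library.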
